A study of Homo sapiens with 27 samples.

Results

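miR-105 and miR-767 are microRNAs whose hairpins lie inside an intron of GABRA3, the gene of the alpha 3 subunit of the GABA-A receptor, on the X chromosome. Their 4 mature arms, hsa-miR-105-5p, hsa-miR-105-3p, hsa-miR-767-5p and hsa-miR-767-3p, were taken by name from the deposited small RNA counts, out of 2276 miRNAs listed in any of the 9 tables. All 4 arms were listed in all 9 tables. They were chosen on their difference between USB1 mutant cells carrying an uninduced USB1 transgene and wild type (WT) cells, so every contrast with either of those groups is given as levels and folds without a test.

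Small RNA was sequenced from 27 libraries in 9 groups of 3. Of these, 15 came from the H1 line of human embryonic stem cells (hESCs), and 12 were from K562, an established chronic myelogenous leukaemia line. The H1 groups were WT, USB1 mutants (a CRISPR/Cas9 deletion of 1 base in the gene of USB1, a 3′ to 5′ RNA exonuclease), the mutant with inducible wild-type USB1 (iUSB1) without doxycycline (−Dox) and with it (+Dox), and the mutant constitutively expressing a short hairpin (sh) that targets PAPD5, which adds adenosines to RNA (shPAPD5). In K562 there were control cells, USB1 knockout (KO) cells, and both again with a hairpin targeting PARN, a poly(A)-specific exonuclease (shPARN). The 4 H1 groups other than WT all carry the USB1 mutation and were built on a line picked as colonies, and the K562 KO cells came from single-cell clones, so the mutation and the history of a clone cannot be told apart. No group is labelled with a non-targeting hairpin, so knockdown of PAPD5 or PARN and the mere presence of a hairpin cannot be told apart. Replicates of miRNA sequencing are named biological by the study, though separate cultures are not given in the labels. A p-value here reflects how far the libraries of a group differ, which may be in part technical.

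A miRNA hairpin is cut from its transcript and then into a short duplex, of which either arm can be loaded into an Argonaute protein. The seed, bases 2 to 8 counted from the 5′ end of the mature arm, is the main determinant of which mRNAs are bound. Adenosines added to the 3′ end of a mature miRNA by enzymes such as PAPD5 can mark it for decay, and 3′ exonucleases such as PARN and USB1 can remove them. GABRA3 and its intronic miRNAs belong to the genes that are methylated and silent in most adult tissues and are transcribed in germ cells and in some tumours that have lost DNA methylation. miR-767-5p is known to repress TET1 and TET3, enzymes that oxidise methylated cytosine, and miR-105 is known as a miRNA secreted by metastatic breast cancer cells that lowers the tight junction protein ZO-1.

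The mature arms are shown first because their seeds set them apart from each other, with bases 2 to 8 in capitals and the sequences taken from RefSeq.
hsa-miR-105-5p: uCAAAUGCucagacuccuguggu
hsa-miR-105-3p: aCGGAUGUuugagcaugugcua
hsa-miR-767-5p: uGCACCAUgguugucugagcaug
hsa-miR-767-3p: uCUGCUCAuaccccaugguuucu
The 4 seeds differ. Of 2370 mature human miRNAs in the RefSeq table, 1 (hsa-miR-7853-5p, listed in none of the 9 tables) had the seed of miR-105-5p, and none had the seed of another member. The 7 bases of the miR-767-5p seed also stand in the 3 miR-29 miRNAs, a family known for repressing collagens and DNA methyltransferases, at positions 3 to 9 in place of 2 to 8, in capitals here.
hsa-miR-29a-3p: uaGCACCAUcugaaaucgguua
hsa-miR-29b-3p: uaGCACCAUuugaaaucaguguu
hsa-miR-29c-3p: uaGCACCAUuugaaaucgguua
These were the only miRNAs of the table that held the 7 bases within their first 10 outside miR-767-5p itself (0.127% of 2370).

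There are 3 hairpins, 1 for miR-767 between 2 copies for miR-105, shown with the mature arms in capitals because the copies decide what the counts can tell apart.
MIR105-2: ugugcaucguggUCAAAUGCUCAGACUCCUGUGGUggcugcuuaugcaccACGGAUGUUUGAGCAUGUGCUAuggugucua
MIR767: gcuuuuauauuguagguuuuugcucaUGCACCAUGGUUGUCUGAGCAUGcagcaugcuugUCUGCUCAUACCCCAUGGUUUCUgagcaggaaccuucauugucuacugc
MIR105-1: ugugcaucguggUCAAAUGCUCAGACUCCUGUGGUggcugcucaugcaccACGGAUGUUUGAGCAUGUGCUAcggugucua
Counted from 1 at the 5′ end of the 81-base hairpin, MIR105-1 and MIR105-2 differed at 2 places, C43U between the arms and C73U after the 3p arm. Both mature arms were identical between the copies, so a count of miR-105-5p or miR-105-3p is the sum of the copies and is uncertain as to which was transcribed.

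In GRCh38.p14 the hairpins lie on the minus strand at chrX:152394412-152394492 (MIR105-2), chrX:152393421-152393529 (MIR767) and chrX:152392219-152392299 (MIR105-1), within 2274 bases. GABRA3 runs on the same strand from 152166234 to 152451315. All 3 hairpins fell in intron 1 of its 10-exon canonical transcript in GENCODE v44, about 57 to 59 kb after the start of the gene. None overlapped an exon of the 4 annotated GABRA3 transcripts, of which only 1 runs over the hairpins. No gene other than GABRA3 was annotated over them. The host mRNA is not measured by small RNA sequencing and was not analysed here.

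**Figure D1:**
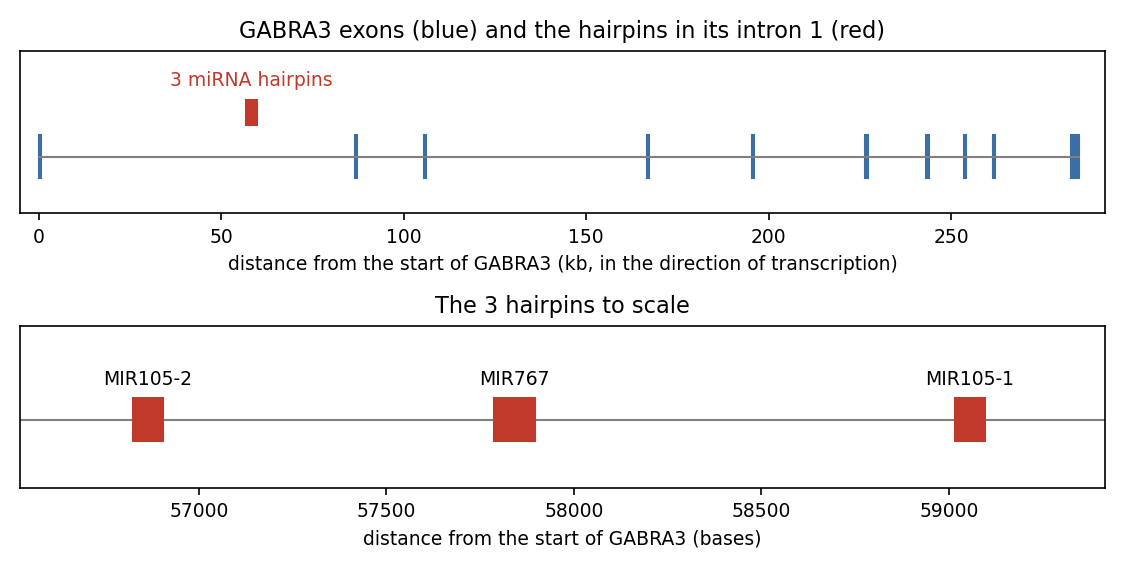
Exons of the canonical GABRA3 transcript (blue) and the miRNA hairpins (red) by distance from the start of the gene in the direction of transcription, in kb above and in bases below. Short exons and the hairpins are widened in the upper panel; the 3 hairpins sit together in intron 1, with MIR767 between the copies of MIR105.

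Libraries held 12258450 to 35734485 miRNA counts in H1 and 1530929 to 13183152 in K562, the lowest being KO library 3. Levels are given as CPM (counts-per-million) scaled by TMM, a factor that lines up the bulk of miRNAs between libraries, separately for each line. The factor was 1.35 in K562 KO library 3 and 0.863 to 1.20 in all other libraries, so levels of KO library 3 are lower on the TMM scale than on its library total. In H1 all 5 pluripotency markers (miR-302a, b, c and d and miR-367) were present in every library. Chi-squared per degree of freedom with the other libraries of the group was 599 and 636 for H1 WT library 1 and 1992 and 2205 for mutant library 1, against 22.6 to 511 for other pairs of H1 libraries of a group. In K562, control libraries 1 and 2 held the pluripotency markers at a summed 766 and 813 CPM, against at most 0.715 in the other 10 libraries. That is 0.414% and 0.439% of the summed level in H1 WT libraries, a share at which H1 RNA would carry at most 0.267 CPM of any of the 4 arms. The fibroblast marker miR-143-3p stood at 5575 CPM in KO library 3 and 12191 CPM in KO shPARN library 1, against 154 to 1472 CPM in the other K562 libraries.

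The 5p arms were the abundant ones in both lines. By mean level, miR-105-5p ranked 156 and miR-767-5p 169 of 998 miRNAs tested in H1, and 166 and 202 of 881 in K562. miR-105-3p and miR-767-3p ranked 489 and 421 in H1 and 400 and 357 in K562. Over the 15 H1 libraries the median was 112 CPM for miR-105-5p, 83.9 for miR-767-5p, 7.73 for miR-767-3p and 4.68 for miR-105-3p. Over the 12 K562 libraries it was 124, 98.3, 16.6 and 10.3 CPM in the same order. Counts per library ran from 21 (miR-105-3p in K562 KO library 3) to 4209 (miR-105-5p), and no arm was at 0 in any library. The 21 counts have an exact Poisson interval (95%, covering counting error only) of 13.0 to 32.1, which is 8.49 to 21.0 CPM on library totals.

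In H1, 3 of the 4 arms were lower in WT, a group that entered the choice of the arms, than in every other library. The share of all miRNAs lower in WT than in all 12 others was not computed, so nothing is read from that count. miR-105-5p was at 55.4, 64.2 and 65.0 CPM in WT libraries 1 to 3, and at 111, 127 and 115 in the mutant. It was at 112, 144 and 135 CPM in iUSB1 −Dox, at 117, 117 and 112 in iUSB1 +Dox, and at 107, 97.0 and 92.9 in shPAPD5. WT was low in all 3 libraries and the 12 others lay above it, with the lowest of them at 92.9 CPM. From the lowest mean up, the order was WT (61.5 ± 5.31 CPM, SD, n = 3), shPAPD5 (99.0 ± 7.31), iUSB1 +Dox (115 ± 2.62), mutant (118 ± 8.23) and iUSB1 −Dox (130.2 ± 16.7). WT and shPAPD5 did not overlap their upper neighbours in that order, whereas the ranges of +Dox, mutant and −Dox overlapped.

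miR-767-5p followed the same order at its lower end. It was at 47.2, 50.8 and 52.6 CPM in WT, at 77.7, 90.0 and 83.9 in the mutant and at 104, 93.4 and 104 in iUSB1 −Dox. It was at 90.3, 102 and 89.9 CPM in iUSB1 +Dox and at 80.5, 83.0 and 81.9 in shPAPD5. All 12 libraries carrying the mutation lay above the 3 of WT, and each pair of neighbouring groups above WT overlapped. Group means were 50.2 ± 2.73 CPM in WT, 81.8 ± 1.26 in shPAPD5, 83.9 ± 6.16 in the mutant, 94.0 ± 6.69 in +Dox and 100.3 ± 6.01 in −Dox (SD, n = 3 each).

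The 3p arms are the partner strands of the duplexes and had far fewer counts. miR-105-3p was at 3.47, 2.97 and 2.84 CPM in WT and at 4.198 to 6.78 CPM in the 12 other libraries, all above WT. Its highest group was −Dox (6.54 ± 0.298 CPM), whose 3 libraries lay above those of +Dox (4.95 ± 0.872), and the ranges of +Dox, shPAPD5 (4.94 ± 0.311) and mutant (4.77 ± 0.879) overlapped. miR-767-3p did not separate WT from the rest. It was at 6.20 to 7.32 CPM in WT and at 6.01 to 9.94 in the others, of which 9 of 12 lay above all of WT, and its lowest group mean was that of +Dox (6.77 ± 0.880) next to WT (6.93 ± 0.639). All neighbouring groups of miR-767-3p overlapped.

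**Figure D2:**
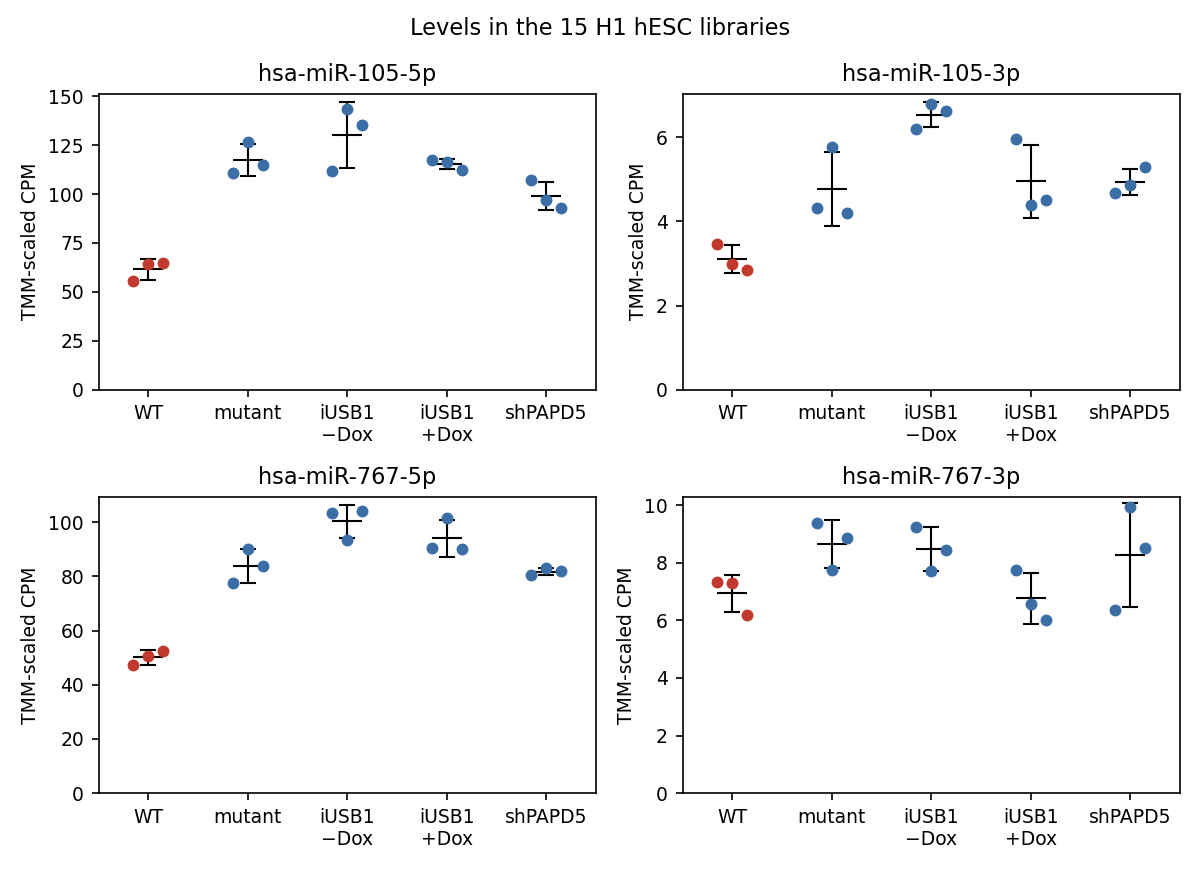
TMM-scaled CPM of each arm (vertical axes from 0) in the 15 H1 hESC libraries by group; points are libraries 1 to 3 from left to right, WT in red, and the bar and whiskers are the mean ± SD of 3. WT libraries lie below the 12 others for miR-105-5p, miR-105-3p and miR-767-5p, and among them for miR-767-3p.

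Against WT, the log2 fold of miR-105-5p was 0.93 (SE 0.155) in the mutant, 1.08 (SE 0.155) in −Dox, 0.91 (SE 0.154) in +Dox and 0.69 (SE 0.154) in shPAPD5. That of miR-767-5p was 0.74 (SE 0.144), 0.9997 (SE 0.145), 0.91 (SE 0.145) and 0.70 (SE 0.144). miR-105-3p had log2 folds of 0.63, 1.07, 0.68 and 0.67 with SEs of 0.226 to 0.228, and miR-767-3p had 0.32, 0.29, −0.03 and 0.26 with SEs of 0.215 to 0.217. As ratios of means, miR-105-5p stood 1.91, 2.12, 1.88 and 1.61 times as high as in WT. These 4 comparisons share the WT libraries.

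Counted over libraries, 4 of 4 arms lay wholly above WT in the mutant, where 14.3% of the 998 tested miRNAs did so. In −Dox it was 4 of 4 against 11.4%, in +Dox 3 of 4 against 15.1%, and in shPAPD5 3 of 4 against 9.22%. The −Dox contrast chose the arms and the others share its WT libraries, so nothing is read from these counts. The median log2 fold of the 4 arms was 0.68, 1.04, 0.79 and 0.68 in the 4 groups, beside 0.04, 0.00, 0.03 and 0.01 over all tested miRNAs. By the size of the log2 fold, the 5p arms ranked between 73 and 221 of 998 miRNAs in the 4 comparisons. With WT library 1 and mutant library 1 left out, the log2 fold of the mutant was 0.90 for miR-105-5p, 0.79 for miR-105-3p, 0.75 for miR-767-5p and 0.29 for miR-767-3p. On library totals in place of TMM, 2 of 4 arms (the 5p arms) lay wholly above WT in the mutant. The share of all miRNAs that did so on library totals is not given, so nothing is read from that count either.

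Cell-state markers also differed among the H1 groups, although shPAPD5 overlapped WT in each of the sums below. The 5 pluripotency markers summed to 178089 to 192365 CPM in WT, 230635 to 397533 in the mutant, 215918 to 274676 in −Dox, 217545 to 256293 in +Dox and 184751 to 249489 in shPAPD5. The 6 markers of differentiated tissues (miR-9-5p, miR-124-3p, miR-122-5p, miR-375-3p, miR-1-3p and miR-133a-3p) summed to 1952 to 2305 CPM in WT, 819 to 1045 in the mutant, 978 to 1320 in −Dox, 858 to 1060 in +Dox and 1675 to 2365 in shPAPD5. Their highest member was miR-9-5p in every H1 library other than WT library 1, where it was miR-1-3p (1029 CPM). The 6 blood markers, led by miR-486-5p, summed to 225 to 244 CPM in WT, 124 to 222 in the mutant, 94.3 to 125 in −Dox, 92.8 to 152 in +Dox and 148 to 339 in shPAPD5. The part of cell state in the levels of the 4 arms was not tested, and in these bulk libraries fewer expressing cells and less RNA per cell cannot be told apart.

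None of the 4 arms differed detectably between iUSB1 +Dox and the mutant. The comparisons among +Dox, mutant and shPAPD5 use neither of the groups that chose the arms, and they were tested with edgeR's quasi-likelihood test with Benjamini-Hochberg adjustment over all 998 miRNAs. From mutant to +Dox the log2 fold was −0.03 for miR-105-5p (95% interval −0.35 to 0.30, adjusted p = 0.971) and 0.16 for miR-767-5p (−0.14 to 0.47, adjusted p = 0.657). The 0.93 and 0.74 by which the mutant stood above WT use the WT libraries that chose the arms. They are therefore no yardstick for these intervals. For miR-105-3p the log2 fold from mutant to +Dox was 0.05 (−0.42 to 0.52, adjusted p = 0.965). miR-767-3p had the lowest value, −0.35 (−0.80 to 0.11, adjusted p = 0.526), and its 3 +Dox libraries lay just below those of the mutant (7.73 against 7.74 CPM at the nearest). Of all 998 miRNAs, 97 lay wholly below there. edgeR called 0 of 4 arms and 0% of all miRNAs, while 118 miRNAs had an unadjusted p below 0.05 and DESeq2 called 15.

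In the mutant with the PAPD5 hairpin, miR-767-5p was at a log2 fold of −0.04 against the mutant alone (95% interval −0.34 to 0.27, edgeR adjusted p = 0.947). All 3 shPAPD5 libraries lay below the 3 mutant libraries for miR-105-5p, with a log2 fold of −0.25 (−0.57 to 0.08, edgeR adjusted p = 0.556). Of all 998 miRNAs, 72 lay wholly below in that comparison. The 3p arms were at log2 folds of 0.04 and −0.06. Against +Dox, miR-105-5p was at −0.22 (−0.55 to 0.10) and miR-767-5p at −0.20 (−0.50 to 0.10), with edgeR adjusted p of 0.649 and 0.666. Both had all shPAPD5 libraries below all +Dox libraries, as had 110 of 998 miRNAs. edgeR called 0 of 4 arms and 0% of all 998 miRNAs in each of these comparisons. There 116 and 117 miRNAs had an unadjusted p below 0.05, and DESeq2 called 8 and 13. In no alternative was an arm called in the 3 tested H1 comparisons.

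The −Dox group entered the choice of the arms, so its other contrasts are folds without a test. From −Dox to +Dox the log2 fold was −0.17 (SE 0.153) for miR-105-5p, −0.40 (SE 0.221) for miR-105-3p, −0.09 (SE 0.143) for miR-767-5p and −0.32 (SE 0.215) for miR-767-3p. All 4 point estimates were thus below 0, and the libraries of both groups overlapped for each arm other than miR-105-3p. The +Dox libraries of miR-105-3p lay wholly below those of −Dox, as for 71 of 998 miRNAs. From mutant to −Dox the log2 folds were 0.15, 0.45, 0.26 and −0.03 in the same order, and from −Dox to shPAPD5 they were −0.39, −0.40, −0.29 and −0.03.

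**Figure D3:**
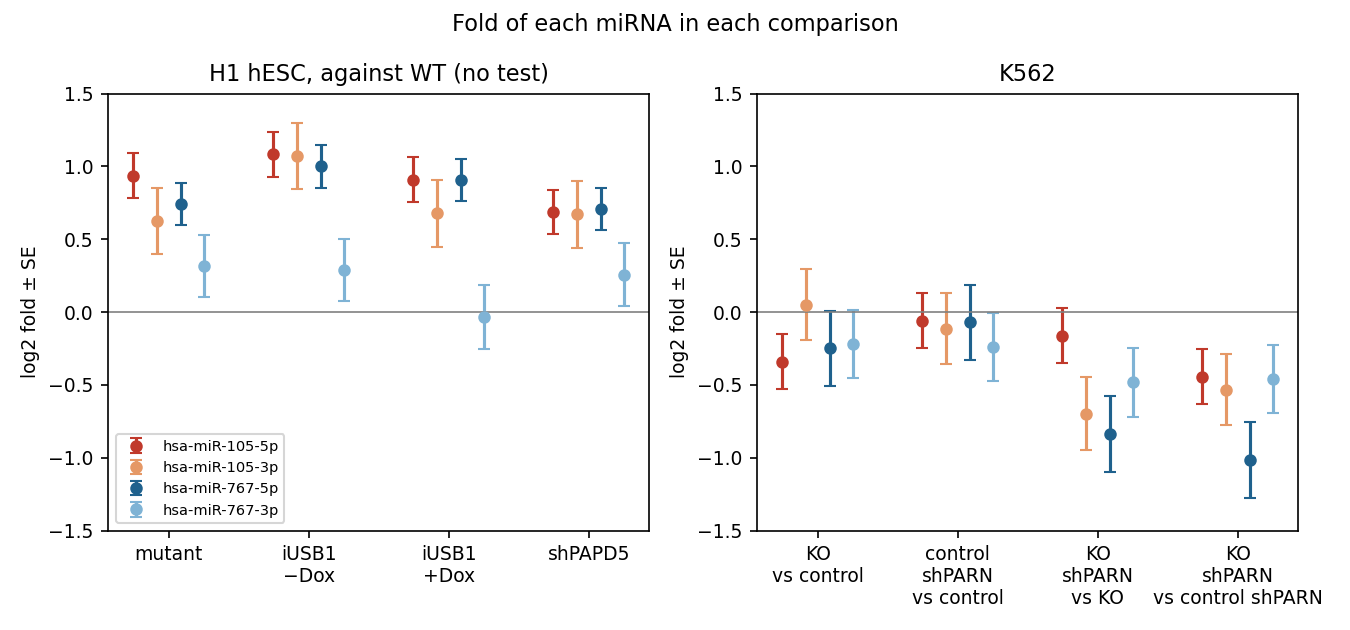
Log2 fold ± SE (vertical axes) of each arm from the edgeR fit, in H1 hESCs against WT on the left, where no test was made, and in 4 K562 comparisons on the right. The H1 folds of 3 arms lie between 0.63 and 1.08 while miR-767-3p lies between −0.03 and 0.32; in K562 the lowest value is that of miR-767-5p in KO shPARN against control shPARN, at −1.01.

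In K562, miR-767-5p was lower where USB1 knockout and the PARN hairpin were combined. It was at 112, 89.8 and 125 CPM in the control libraries, at 112, 109 and 51.5 in KO, at 107, 88.3 and 116 in control shPARN and at 43.5, 55.6 and 54.9 in KO shPARN. The 3 KO shPARN libraries lay below the 6 libraries without knockout. KO library 3, the shallowest, lay among them on the TMM scale and above them on library totals (69.2 CPM). Means were 51.3 ± 6.75 CPM in KO shPARN, 90.9 ± 34.2 in KO, 104 ± 14.03 in control shPARN and 109 ± 17.8 in control (SD, n = 3), with every pair of neighbours in that order overlapping.

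Against control shPARN the log2 fold of miR-767-5p in KO shPARN was −1.01 (SE 0.260, edgeR adjusted p = 0.0265), and 3 of 3 libraries lay below, as for 124 of 881 miRNAs. miR-767-5p was the only arm of 4 called there, where 9.19% of 881 miRNAs were called, 44 up and 37 down. Against KO its log2 fold was −0.83 (SE 0.260, edgeR adjusted p = 0.0473), again 1 of 4 arms where 14.8% of all were called. A comparison with control, added after the values were seen, gave −1.08 (SE 0.261, edgeR adjusted p = 0.0144), 1 of 4 arms against 14.1% of all. These comparisons share the KO shPARN libraries.

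The calls depended on single libraries. Against control shPARN the adjusted p was 0.0530, 0.0670 and 0.0632 without control shPARN library 1, control shPARN library 3 or KO shPARN library 1. Against KO it rose to between 0.0507 and 0.186 without any 1 of KO libraries 1 and 2 and KO shPARN libraries 1, 2 and 3. The call against KO was also lost with only the 2 groups compared in the fit (log2 fold −0.87, adjusted p = 0.106) and with the replicate number as a block (log2 fold −0.87, adjusted p = 0.0666). Without both KO library 3 and KO shPARN library 1, an alternative chosen after seeing the data, it was 0.0106 against control shPARN (log2 fold −0.93), 0.0130 against KO (log2 fold −1.03) and 0.00562 against control (log2 fold −0.99). Against control it was 0.0591 without control library 3 and 0.0960 without control libraries 1 and 2 (log2 fold −1.31), where the lone control is taken to vary like the other groups.

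Neither change alone moved miR-767-5p past the threshold. KO against control gave a log2 fold of −0.25 (95% interval −0.80 to 0.30, edgeR adjusted p = 0.650), which was 0.03 without KO library 3. Control shPARN against control gave −0.07 (−0.62 to 0.48, edgeR adjusted p = 0.941). edgeR called 0 of 4 arms in each, beside 5.11% and 1.48% of the 881 miRNAs, where 155 and 118 miRNAs had an unadjusted p below 0.05 and DESeq2 called 63 and 36. The interaction of knockout and hairpin, also added after the values were seen, was −0.76 for miR-767-5p (95% interval −1.55 to 0.02, edgeR adjusted p = 0.291), so the effect of the hairpin was not shown to differ between KO and control. It called 0 of 4 arms and 1.82% of all miRNAs, where 159 had an unadjusted p below 0.05 and DESeq2 called 37.

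miR-105-5p had its values within a narrower span. It was at 137, 143 and 137 CPM in control, at 127, 121 and 81.1 in KO, at 143, 112 and 146 in control shPARN and at 86.4, 103.9 and 104.7 in KO shPARN. The KO libraries lay below the 3 controls (log2 fold −0.34, SE 0.189, edgeR adjusted p = 0.368), and so did those of KO shPARN, which also lay below control shPARN (log2 fold −0.44, SE 0.189, edgeR adjusted p = 0.154). Of all 881 miRNAs, 139, 136 and 124 lay wholly below in these comparisons, in the same order. Against KO the fold of KO shPARN was −0.16 (95% interval −0.57 to 0.24). None of these folds of miR-105-5p passed the test. The fold of KO against control rested on KO library 3: it was −0.16 without that library and −0.15 (edgeR adjusted p = 0.763) without KO library 3 and KO shPARN library 1. Without KO library 3, that of KO shPARN against KO was −0.34.

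The 3p arms in K562 were lowest in KO shPARN. miR-105-3p was at 8.83, 10.5 and 13.9 CPM in control, at 11.1, 12.9 and 10.2 in KO, at 10.4, 10.4 and 9.86 in control shPARN and at 5.31, 7.69 and 8.24 in KO shPARN. The 3 KO shPARN libraries were below the 9 others, with a log2 fold of −0.70 against KO (SE 0.250, edgeR adjusted p = 0.0808) and −0.53 against control shPARN (SE 0.246, edgeR adjusted p = 0.181). Of all 881 miRNAs, 106 lay wholly below KO and 124 wholly below control shPARN. miR-767-3p was at 12.1 ± 2.87 CPM in KO shPARN, 16.7 ± 3.79 in control shPARN, 16.8 ± 2.23 in KO and 19.7 ± 1.78 in control (SD, n = 3), and its log2 folds of −0.48 and −0.46 against KO and control shPARN did not pass (edgeR adjusted p = 0.213 and 0.233). Without KO library 3 and KO shPARN library 1, the log2 fold of miR-105-3p was −0.62 against KO and −0.38 against control shPARN, and that of miR-767-3p was −0.56 and −0.45. Against control all 4 arms had every KO shPARN library below every control library, as had 15.4% of all miRNAs. The median log2 fold of the 4 arms was −0.67 there, −0.59 against KO and −0.50 against control shPARN, beside 0.05, 0.11 and 0.02 over all 881 miRNAs. On library totals, which shift the median of all miRNAs to −0.14 in KO shPARN against control, that comparison called 4 of 4 arms, all lower. The shift favours lower calls and the share of all miRNAs called on library totals is not given beside it, so nothing is read from that count.

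Markers of other tissues also differed among the K562 groups. The 6 markers of differentiated tissues summed to 312 to 555 CPM in control, 1432 to 1605 in KO, 244 to 303 in control shPARN and 723 to 1338 in KO shPARN. In every K562 library miR-9-5p was the highest of the 6, so these sums largely follow that miRNA. It was at 234 to 372 CPM in control, 1031 to 1518.5 in KO, 211 to 252 in control shPARN and 624 to 765 in KO shPARN. The 5 fibroblast markers (miR-199a-3p, miR-199a-5p, miR-214-3p, miR-143-3p and miR-145-5p) summed to 1106 to 1617, 969 to 5874, 328 to 469 and 426 to 12485 CPM in the same order. The 6 blood markers (miR-142-3p, miR-142-5p, miR-223-3p, miR-451a, miR-144-3p and miR-486-5p) were present in every library and summed to 6499 to 11269 CPM. The part of these cell types in the levels of the 4 arms was not tested, beyond the folds given without KO library 3 and KO shPARN library 1.

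**Figure D4:**
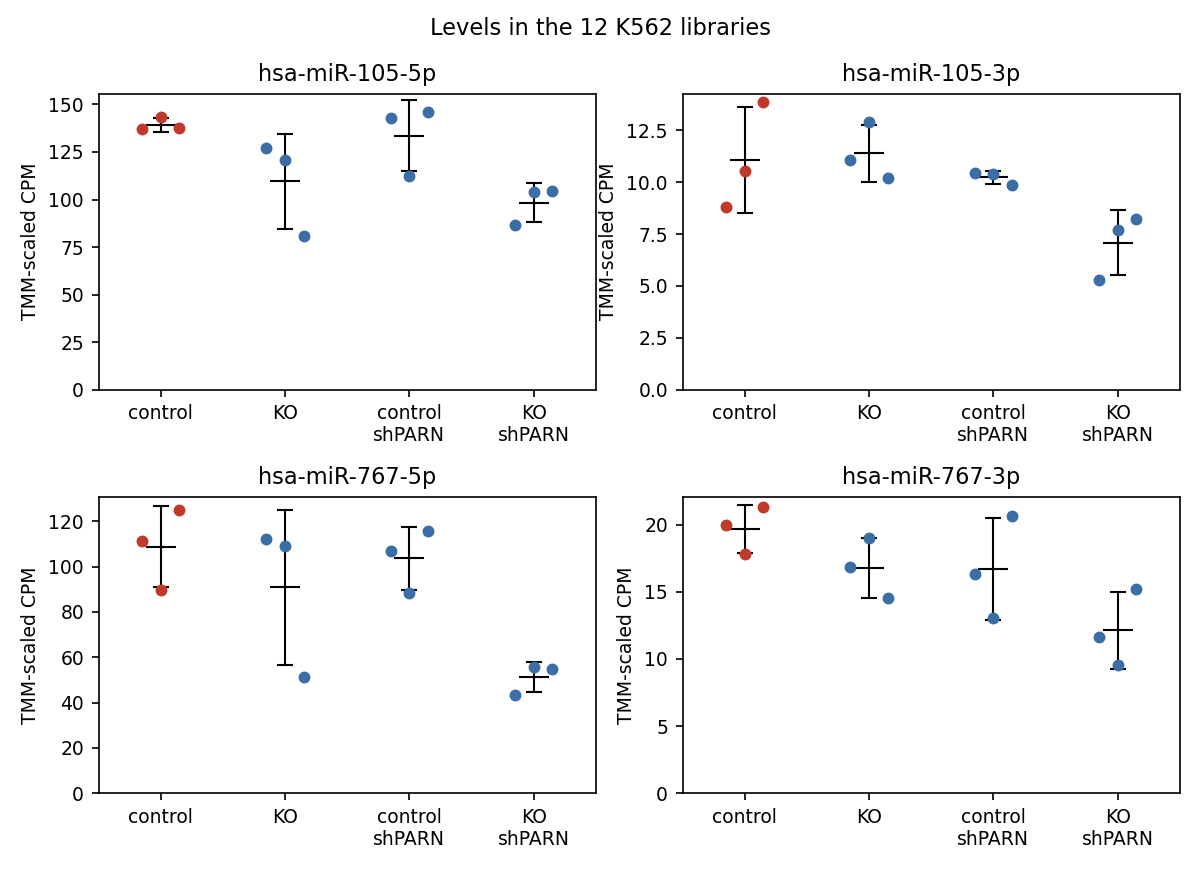
TMM-scaled CPM of each arm (vertical axes from 0) in the 12 K562 libraries by group; points are libraries 1 to 3 from left to right, control in red, and the bar and whiskers are the mean ± SD of 3. miR-767-5p stands at 43.5 to 55.6 CPM in KO shPARN, with KO library 3 at 51.5 and all others at 88.3 or above.

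Ratios of counts within a library do not depend on how libraries are scaled. With 0.5 counts added to each arm, miR-105-5p was counted 15.8 to 27.2 times as often as miR-105-3p in H1 (median 21.4) and 7.79 to 16.1 times in K562 (median 13.0). miR-767-5p was counted 6.42 to 15.4 times as often as miR-767-3p in H1 (median 11.2) and 3.49 to 6.74 times in K562 (median 5.66). The 5p to 3p ratio was thus lower in K562 at the median for both hairpins, and no test was made between the lines. miR-767-5p was counted 0.650 to 0.928 times as often as miR-105-5p in H1 and 0.504 to 0.910 times in K562.

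The ratio of miR-767-5p to miR-105-5p was lowest in KO shPARN, at a log2 of −0.94 ± 0.0432 (SD, n = 3), or 0.504 to 0.535 times. It was −0.33 ± 0.283 in KO, −0.37 ± 0.0444 in control shPARN and −0.37 ± 0.277 in control, and the 3 KO shPARN libraries lay below the 9 others, whose lowest was control library 2 at −0.68. The difference was −0.61 against KO and −0.58 against control shPARN, each with p = 0.1 in a two-sided exact permutation test, the smallest p that 3 libraries against 3 allow. The permutation ignored the pairs of same-numbered control shPARN and KO shPARN libraries. A test of the ratio that kept those pairs could not reach a p as low, and none was run. The arm ratio of miR-105 was higher in KO shPARN than in KO by 0.57 on the log2 scale (exact permutation p = 0.1), and that of miR-767 overlapped (difference −0.26, exact permutation p = 0.7).

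In H1 the ratio of miR-767-5p to miR-105-5p was a log2 of −0.49 ± 0.0289 in the mutant, −0.30 ± 0.0921 in +Dox and −0.27 ± 0.123 in shPAPD5 (SD, n = 3). The mutant libraries lay below both others, by 0.19 and 0.21 (exact permutation p = 0.1 each). With no test, the ratio was −0.29 ± 0.0550 in WT, whose libraries lay above the mutant, and −0.37 ± 0.257 in −Dox. The −Dox libraries ran from −0.62 to −0.11 and overlapped those of the mutant, +Dox and shPAPD5. The 5p to 3p ratio of miR-767 was higher in +Dox than in the mutant by 0.52 (log2 3.79 ± 0.221 against 3.28 ± 0.247, exact permutation p = 0.1). The groups only just separated, with +Dox library 1 at 3.541 and mutant library 2 at 3.538. In WT the 5p to 3p ratio of miR-767 was 2.85 ± 0.203, with no test. The WT libraries lay below those of +Dox and of −Dox (3.56 ± 0.0748) and overlapped those of the mutant and shPAPD5 (3.32 ± 0.302). The arm ratio of miR-105 overlapped among all H1 groups compared, with exact permutation p of 0.2 to 0.6. Over the 21 ratio tests, the lowest Benjamini-Hochberg adjusted p was 0.35, and 6 were at the smallest exact p.

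**Figure D5:**
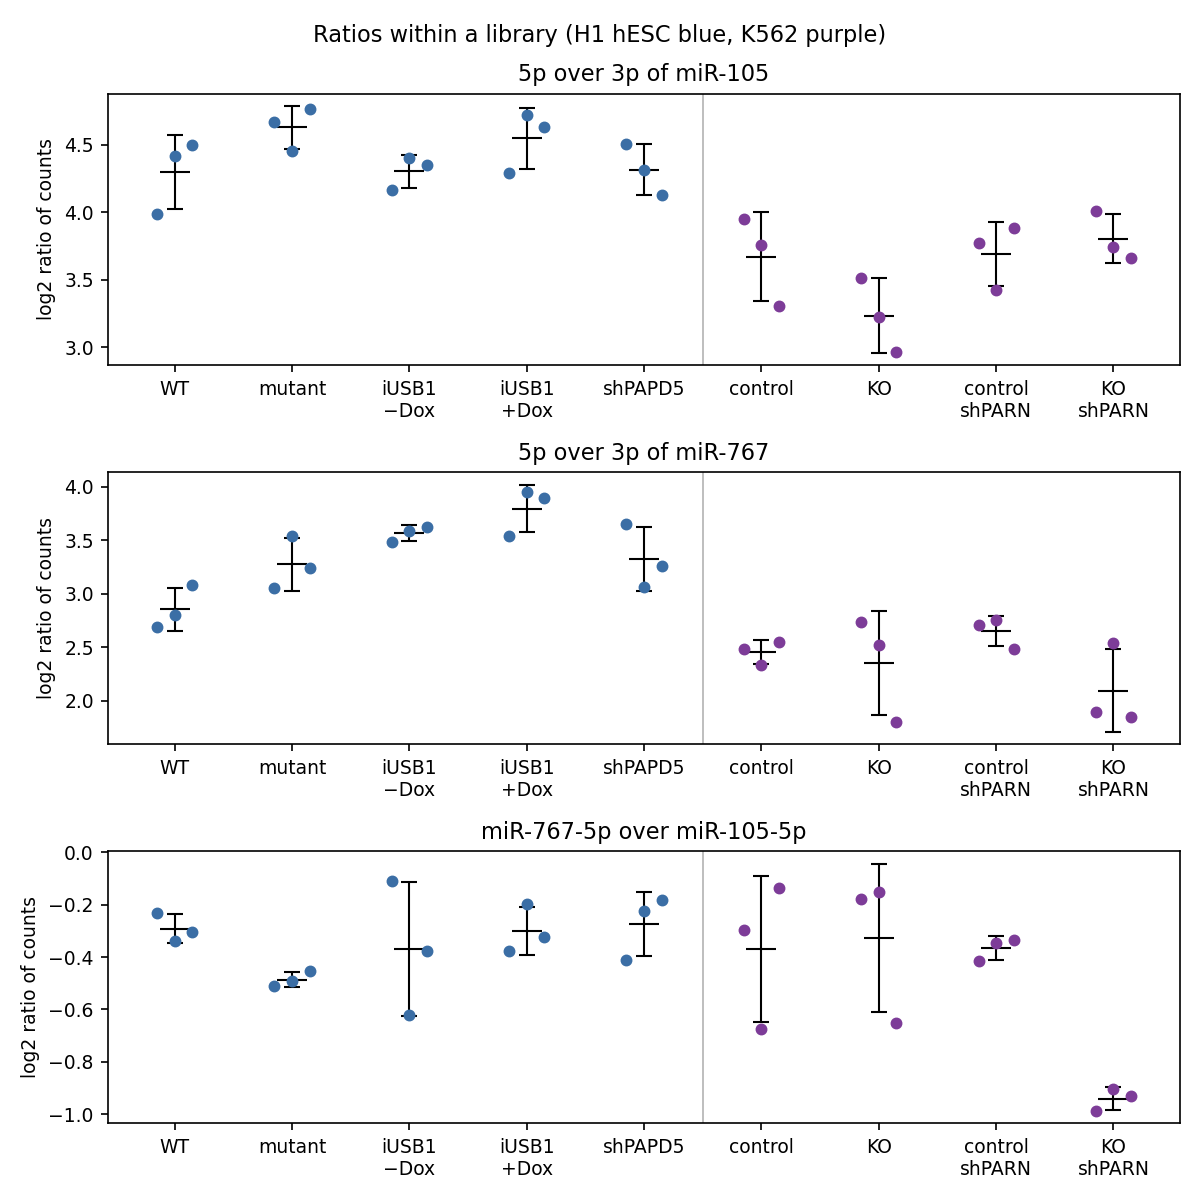
Log2 ratio of counts within each library (vertical axes) for the arms of miR-105, the arms of miR-767 and miR-767-5p over miR-105-5p, by group; points are libraries, H1 hESC in blue and K562 in purple, and the bar and whiskers are the mean ± SD of 3. In the lowest panel the 3 KO shPARN libraries stand at −0.99 to −0.90, below every other library.

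The patterns of the members were compared over the 15 H1 libraries by Pearson correlation of log2 CPM, which is a description, since the libraries share groups and WT stands apart. The 15 include the WT and −Dox libraries that chose the arms. Likeness among the arms and low WT means in their neighbours follow in part from that choice, so nothing is read from them. miR-767-5p was the miRNA most like miR-105-5p of all 998 (r = 0.94), miR-105-3p ranked 3 (r = 0.84) and miR-767-3p ranked 294 (r = 0.25). The 5 others most like miR-105-5p were miR-550a-5p (r = 0.89), miR-556-5p (0.83), miR-708-3p (0.82), miR-1285-3p (0.81) and miR-548g-5p (0.81). For miR-767-5p they were miR-1270 (0.84), miR-550a-5p (0.83), miR-3659 (0.80), miR-3907 (0.79) and miR-135b-3p (0.79). All of these had their lowest group mean in WT, for instance miR-708-3p with 59.5 CPM in WT and 88.6 to 135 in the other groups, and miR-550a-5p with 8.78 CPM and 12.7 to 16.3.

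The other miRNAs of the same end of the X chromosome were taken from a list of 27 arms lying 0.433 to 6.40 megabases from the hairpins. Of these, 9 were tested in H1 and 7 in K562. In H1, 0 of 9 were called in the 3 tested comparisons. Above WT, 0 lay wholly in the mutant, 0 in −Dox, 0 in +Dox and 1 (miR-452-5p) in shPAPD5. Below WT, 1 (miR-509-3p) lay wholly in the mutant, 0 in −Dox, 2 (miR-506-3p and miR-509-3-5p) in +Dox and 1 (miR-509-3-5p) in shPAPD5. Of all 998 miRNAs, 143, 114, 151 and 92 lay wholly above WT in these groups, in the same order. Wholly below WT lay 115, 116, 154 and 100, so nothing is read from the counts of the list. miR-509-3p had a log2 fold of −2.18 (SE 0.537) in the mutant, from 0.948 to 2.496 CPM in WT libraries to 0.225 to 0.393. The median log2 folds of the 9 against WT were −0.17, −0.05, −0.43 and −0.12. miR-224-5p and miR-452-5p, from introns of GABRE, the gene of another GABA-A receptor subunit, were at 169 ± 94.6 and 99.98 ± 56.2 CPM in WT and at 150 ± 43.3 and 107 ± 4.88 in the mutant (SD, n = 3).

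In K562 the same GABRE miRNAs were among the called ones. miR-452-5p (log2 fold −1.75, SE 0.262), miR-452-3p (−1.59, SE 0.212) and miR-224-5p (−1.30, SE 0.297) were lower in KO shPARN than in control shPARN, with edgeR adjusted p of 0.00144, 0.000822 and 0.0174. That is 3 of 7 listed and tested, beside 9.19% of all miRNAs, and these arms come from neighbouring hairpins. The other GABRE arm, miR-224-3p, was not called (−0.95, SE 0.288, edgeR adjusted p = 0.0528). Mean miR-452-5p was 2363 CPM in control, 1960 in KO, 5092 in control shPARN and 1518 in KO shPARN. miR-452-3p was higher in control shPARN than in control (1.12, SE 0.210, edgeR adjusted p = 0.0168), whereas all 4 arms of miR-105 and miR-767 had log2 folds between −0.24 and −0.06 there. No listed miRNA was called in KO against control, in KO shPARN against KO or in KO shPARN against control, where the medians of the 7 were −0.27, −0.12 and −0.31. The interaction called 1 of 7, miR-452-3p (−1.27, edgeR adjusted p = 0.04997), beside 1.82% of all miRNAs.

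The miR-29 miRNAs, which hold the seed of miR-767-5p shifted by 1 base, ran from levels above that of miR-767-5p in K562 (miR-29a-3p) to a small share of it (miR-29c-3p). miR-29a-3p was at 81.3 ± 4.07 CPM in H1 WT and 93.4 ± 25.6 in the mutant, and at 244 ± 27.04 in K562 control and 255 ± 22.6 in KO shPARN (SD, n = 3). miR-29b-3p was at 4.74 ± 0.713 and 8.93 ± 5.42 CPM in the H1 groups and at 51.2 ± 4.33 and 53.7 ± 9.86 in the K562 groups. miR-29c-3p was not among the miRNAs tested in H1 and was at 3.77 ± 1.17 CPM in K562 control. None of the miR-29 miRNAs was called in the 3 tested H1 or 6 K562 comparisons. In KO shPARN against control shPARN their log2 folds were −0.04, −0.24 and −0.11, beside −1.01 for miR-767-5p.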

How the data were processed

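Per the study's methods and the labels, total RNA was isolated with Trizol, made into Lexogen small RNA libraries and read on a NovaSeq. For adapter removal the authors used cutadapt 2.5, for alignment to human miRBase entries Bowtie2 2.2.9 (no seed mismatch) and for counting SAMtools 1.3.1. What they deposited is raw counts for each mature arm, with no normalisation. A table lists only miRNAs counted in its first column. Adaptor rows (at most 0.206% of counts) were removed, and 0 columns were left out.

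Each line was fitted once with edgeR 4.0.16 (quasi-likelihood, TMM, robust dispersion, filterByExpr with a minimum count of 10 and total of 15) in R 4.3.3, on the miRNAs that all tables of a line list (1251 in H1, 1080 in K562). Of these 998 and 881 were tested, holding at least 99.98% of counts, and a call was a Benjamini-Hochberg adjusted p under 0.05. DESeq2 1.42.0 was an alternative, and the fit was tested on simulated data. The SE is the log2 fold over the root of its F. Named miRNAs were the members, those of the X chromosome list and the miR-29 list, the 5 most correlated with each 5p arm, and the cell type markers. The members and lists were chosen with earlier results of these data known. K562 control columns carry no sample number and were numbered by column. Same-numbered control shPARN and KO shPARN libraries deviated together (r 0.344, 0.164 and 0.219). Their numbers were taken as pairs only in the replicate block, which changed no call there. The main fit and the ratio tests did not use the pairs. Sequences came from RefSeq (GRCh38.p14), with 2031 of 2276 listed names matched, and annotation from GENCODE v44.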

Additional observations from a re-analysis of the deposited data

Results flagged for a closer look

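hsa-miR-105-5p stood on opposite sides of the unedited cells in the H1 and K562 cells without functional USB1. In H1 all 3 mutant libraries lay above all 3 WT libraries (log2 fold 0.93), and in K562 all 3 KO libraries lay below all 3 controls (log2 fold −0.34, edgeR adjusted p = 0.368). Of all tested miRNAs, 14.3% lay wholly above WT in the mutant, and 139 of 881 lay wholly below control in KO. The K562 fold was −0.16 without KO library 3, and −0.15 without KO library 3 and KO shPARN library 1. The difference between the lines was not tested, and the arm was chosen on a contrast with the same WT libraries.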

How the results depend on the processing

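Of 944 refitted folds of the 4 arms, 12 lost a call, 11 gained one, and 6 untested ones moved by more than the spread between libraries. The sign changed in 40, of which 27 were in tested contrasts, and none of these was a called fold. The strict filter (CPM of at least 10 in 3 libraries) tested only the 5p arms in H1, so 2 arms lay wholly above WT in the mutant and 2 in −Dox. On library totals it was 2 in the mutant. The shares of all miRNAs in these settings are not given, so nothing is read from these counts. Library totals moved the median of all miRNAs by more than 0.1 in shPAPD5 against mutant (to 0.13), in −Dox against mutant (to 0.072), in control shPARN against control (to −0.29), in KO shPARN against KO (to −0.14) and in KO shPARN against control (to −0.14).

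In KO shPARN against KO, 2 arms were called by DESeq2, on library totals and with the strict filter, and 0 with only the 2 groups compared. Leaving out libraries gave 0 to 1. In KO shPARN against control shPARN, leaving out libraries gave 0 to 1. In KO shPARN against control, 3 arms were called by DESeq2, 4 on library totals, 3 with the strict filter, 0 without control libraries 1 and 2, and 0 to 2 when leaving out libraries. These counts of arms are not set beside the share of all miRNAs called in the same setting, so nothing is read from them. Over all miRNAs, calls ranged from 8 to 63 in KO against control, 0 to 36 in control shPARN against control, 38 to 163 in KO shPARN against KO, 38 to 129 in KO shPARN against control shPARN, 14 to 165 in KO shPARN against control and 0 to 37 in the interaction, and from 0 to 15, 8 and 34 in +Dox against mutant, shPAPD5 against mutant and shPAPD5 against +Dox.

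With the replicate number as a block, KO shPARN against KO called 0 arms (miR-767-5p −0.87, adjusted p = 0.0666); there the numbers are only a shared number (r −0.00922 to 0.0245). The block changed no other call of an arm. In H1 no pair of groups had every correlation over 0.1.

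Uncalled folds of tested contrasts changed sign as follows, in log2. On library totals, miR-105-5p in +Dox against mutant was 0.063, miR-767-5p and miR-767-3p in shPAPD5 against mutant were 0.13 and 0.077, and miR-105-3p in shPAPD5 against +Dox was 0.058. The strict filter gave 0.018 for miR-105-5p in +Dox against mutant, the 2 groups alone 0.026 for miR-105-3p in shPAPD5 against +Dox, and leaving out WT library 1 and mutant library 1 gave 0.036 for miR-767-3p in shPAPD5 against mutant. In KO against control, miR-105-3p was −0.29 without control libraries 1 and 2, and miR-767-5p was 0.045 without KO library 3 and KO shPARN library 1. Leaving out single libraries gave −0.038 to 0.030 (miR-105-5p) and −0.10 to 0.22 (miR-105-3p) in +Dox against mutant. In shPAPD5 against mutant it gave −0.015 to 0.22 (miR-105-3p), −0.065 to 0.025 (miR-767-5p) and −0.18 to 0.10 (miR-767-3p), and in shPAPD5 against +Dox −0.075 to 0.16 (miR-105-3p). In KO against control it gave −0.089 to 0.27 (miR-105-3p) and −0.43 to 0.028 (miR-767-5p). In control shPARN against control it gave −0.14 to 0.078 (miR-105-5p), −0.25 to 0.10 (miR-105-3p) and −0.19 to 0.064 (miR-767-5p). In untested contrasts, only miR-767-3p changed sign. In +Dox against WT it was 0.035 without WT library 1 and mutant library 1, and −0.15 to 0.040 leaving out single libraries. In −Dox against mutant it was 0.073 on library totals, 0.061 without those libraries and −0.085 to 0.046 leaving out single ones. In shPAPD5 against −Dox it was 0.0046 on library totals and −0.17 to 0.11 leaving out single libraries.

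The ratio differences kept their direction with a pseudocount of 1. Leaving out single libraries, the arm ratio of miR-105 ran from −0.17 to 0.047 in +Dox against mutant, −0.16 to 0.16 in control shPARN against control and −0.021 to 0.21 in KO shPARN against control shPARN. That of miR-767 ran from −0.12 to 0.18 in shPAPD5 against mutant and −0.29 to 0.17 in KO against control. The ratio of miR-767-5p to miR-105-5p ran from −0.019 to 0.10 in shPAPD5 against +Dox, −0.11 to 0.21 in KO against control and −0.15 to 0.12 in control shPARN against control. The causes of these changes were not tested. At 21 counts for miR-105-3p in the shallowest library, counting error limits that arm.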
